A study of Mus musculus with 24 samples.

Results

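Mouse genes named Zfp followed by a number code for zinc finger proteins, most of which read DNA through arrays of C2H2 fingers. Members were the protein-coding genes whose symbol is Zfp and a number, leaving out Zfp36, with a mean of at least 10 CPM (reads relative to the library's total) over the 24 libraries. The rule took 158 of 363 such genes, out of 35519 genes in the files. They were thus chosen by their mean level over all libraries, and no difference between states or genotypes entered the rule, although the family was picked with earlier results of these libraries known. Just inside the limit were Zfp772, Zfp566 and Zfp358 with means of 10.6, 10.4 and 10.1 CPM, and just outside were Zfp870, Zfp984 and Zfp11 with 9.99, 9.91 and 9.60 CPM.

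Each library was prepared with Smart-Seq2, which copies whole RNA molecules but records neither strand nor molecular identifiers, from 1000 microglia, the resident macrophages of the brain. The cells came from whole brains of C57BL/6 mice and were sorted as negative for Ly6C and positive for CD11b and Fcrls. The 8 groups were female NL4-/- phagocytosis, male NL4-/- phagocytosis, female WT phagocytosis and male WT phagocytosis with 4 libraries each, and female NL4-/- control, male NL4-/- control, female WT control and male WT control with 2 each. NL4-/- mice lack neuroligin-4, a synaptic adhesion protein, and WT mice are wild type. The age of the mice, the kind of allele, what the cells of the phagocytosis groups took up and whether they did so in the animal or in a dish are not stated in the labels. The design text calls the libraries biological replicates and gives 5 per phagocytosis group, of which the fifth is not analysed here.

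Library totals ran from 419603 to 1010655 reads, so that 10 CPM stood for about 4 to 10 reads. Summed markers of microglia ran from 32064 to 63509 CPM in phagocytosis libraries and from 45619 to 62811 CPM in control libraries. Of Nlgn4l, the knocked-out gene, 0 transcripts were in the set, so the genotype label could not be checked. Satellite-like transcripts, a set of predicted genes rich in repeats, took 1.52 to 16.3% of the reads of phagocytosis libraries and 4.07 to 23.3% of those of control libraries. Their share was above 20% in 3 control libraries (female NL4-/- control 1, male NL4-/- control 1 and male WT control 2), and values without those 3 are given beside the results. That leaves 1 control library in 3 groups, which is then taken to vary as the other groups do. Phagocytosis libraries numbered 1 and 2 had 32064 to 49064 CPM of microglia markers and those numbered 3 and 4 had 43951 to 63509 CPM, with no overlap in 3 of the 4 phagocytosis groups and an overlap in female WT. Female WT phagocytosis 2 had the fewest genes with a read, 11582, and reads of 150 members, where every other library had reads of at least 155.

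Many C2H2 proteins also carry a KRAB domain, a short segment that binds the co-repressor Trim28, which in turn recruits enzymes that silence chromatin. KRAB zinc finger proteins are best known for silencing retroelements and for keeping imprints. Other members of the family, without the domain, are transcription factors, chromatin regulators, or proteins that bind RNA or act in translation.

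A search of the longest coding sequence of each gene found a KRAB core in 66 members and none in 92. The search asked for at least 6 of 8 spaced residues of that core, a limit set after the scores of known KRAB genes had been seen, and 337 of 21703 coding genes, 1.55%, passed it. Members with a KRAB match had a median of 11.5 C2H2 matches and those without had 8, with a maximum of 41. The coding stretches of the core in the 6 KRAB members that differed between the states are shown, 5′ to 3′ on the coding strand and in the GENCODE transcripts of GRCm38, because they carry the feature by which the members are grouped here. Capitals mark the codons of the 8 core residues, all of which were met in these 6.

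Zfp738: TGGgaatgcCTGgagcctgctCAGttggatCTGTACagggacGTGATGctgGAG

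Zfp658: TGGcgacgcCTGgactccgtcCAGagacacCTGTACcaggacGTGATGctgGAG

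Zfp950: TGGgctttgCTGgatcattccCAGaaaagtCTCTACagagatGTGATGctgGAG

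Zfp871: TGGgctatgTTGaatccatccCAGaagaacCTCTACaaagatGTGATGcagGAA

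Zfp715: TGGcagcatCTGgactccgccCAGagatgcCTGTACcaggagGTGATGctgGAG

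Zfp65: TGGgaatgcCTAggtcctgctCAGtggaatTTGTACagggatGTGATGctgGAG

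The fingers show how far members share sequence. The first C2H2 matches of Zfp738 and Zfp65, neighbours on chromosome 13, were the same in every base, as printed here with the codons of the paired cysteines and histidines in capitals, beside the first match of Zfp658 on chromosome 7.

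Zfp738: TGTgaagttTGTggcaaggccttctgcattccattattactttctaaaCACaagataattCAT

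Zfp65: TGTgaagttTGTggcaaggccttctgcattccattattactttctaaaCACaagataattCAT

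Zfp658: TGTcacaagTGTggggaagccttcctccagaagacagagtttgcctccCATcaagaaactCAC

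A read within such a stretch cannot be assigned to 1 gene. Over the family, 108 members shared under 5% of their 31-base words with any other gene on either strand, 36 shared 5 to 20% and 14 shared at least 20%. Zfp993 shared the most, 88.5%. The values of members with much sharing are uncertain to the extent that the authors' quantification divided reads among the copies.

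Per length, Zfp131, a BTB-domain transcription factor, had the highest level in the family, with a mean of 533 TPM and library values from 144 to 1108 TPM. It was followed by Zfp706, a small protein known in embryonic stem cells, with 121 TPM. Zfp207, a protein of the mitotic spindle and of splicing, was next with 58.1 TPM, at library values from 28.1 to 82.3 TPM. Zfp131's reads lay mostly (95.1%) on a protein-coding transcript of 663 bases, so its high TPM and its CPM rest on that short transcript. Read counts put the members in another order. By mean CPM the leaders were Zfp131 (263), Zfp706 (180), Zfp710 (142), Zfp652 (113), Zfp207 (110), Zfp488 (107), Zfp276 (98.9) and Zfp263 (98.1).

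In phagocytosis libraries the family as a whole sat slightly below its level in control libraries. Together the members took 0.440 to 0.531% of the reads of phagocytosis libraries (median 0.476%) and 0.495 to 0.570% of those of control libraries (median 0.545%), so the states overlapped. The 66 KRAB members took 0.111 to 0.156% in phagocytosis and 0.151 to 0.174% in control libraries. The 92 others took 0.322 to 0.387% in phagocytosis and 0.334 to 0.403% in control libraries. As a share of the reads outside the satellite-like transcripts, the members took 0.464 to 0.562% in phagocytosis libraries and 0.577 to 0.693% in control libraries, with no overlap. That denominator was chosen after the values were seen. It raises the share of any set of other genes, and most in the libraries richest in satellite-like transcripts. Those transcripts took 1.52 to 16.3% of the reads of phagocytosis libraries and 4.07 to 23.3% of those of control libraries. Whether other gene sets also separate the states on this denominator was not tested. In bulk samples of this kind, fewer cells of a type and less RNA per cell cannot be told apart.

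**Figure D1:**
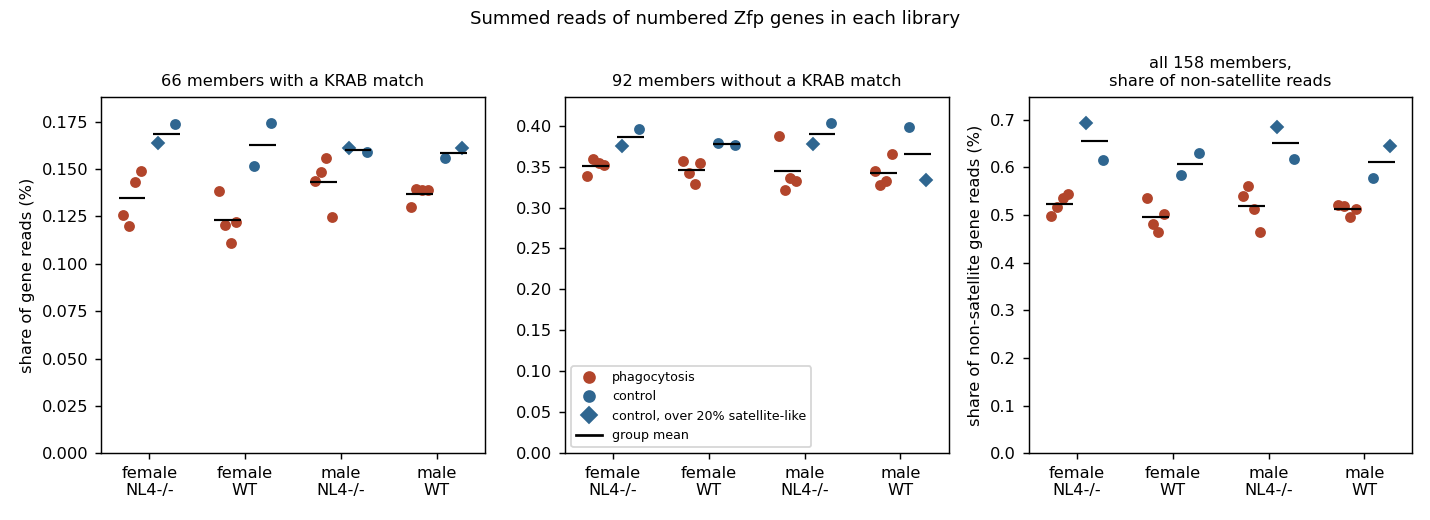
Share of gene reads (%) taken by the 66 members with a KRAB match and the 92 without, and share of non-satellite gene reads taken by all 158, for each library; points are libraries, lines are group means and diamonds are control libraries over 20% satellite-like. In the right panel the 16 phagocytosis libraries lie between 0.464 and 0.562%, all below the 8 control libraries, and in the other panels the states overlap. The denominator of the right panel raises the share of any set of other genes most in satellite-rich libraries, and other gene sets were not tested on it.

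Averaged over the 4 sex and genotype groups, the median log2 fold change of the members, phagocytosis over control, was -0.24, where that of all 9803 genes tested was -0.01. It was below 0 in 117 members, 74.1%, and in 50.7% of all genes tested. All 158 members entered the test. With edgeR's quasi-likelihood test and a Benjamini-Hochberg adjusted p under 0.05, 12 members fell and 2 rose. Over all genes tested 13.6% were called, 5.18% lower and 8.41% higher, so 14 called members, 8.86%, are fewer than that share gives, while 12 lower are 7.59% and 2 higher are 1.27%. DESeq2 called 11 members lower and 2 higher. A further 40 numbered Zfp genes below 10 CPM passed the count filter, with a median of -0.28 and 0 called by edgeR, 1 (Zfp945, chosen after its values were seen) called by DESeq2 and 2 at an unadjusted p under 0.05. Of all genes tested 27.0% had such a p in edgeR, and of the members 24.1%.

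**Figure D2:**
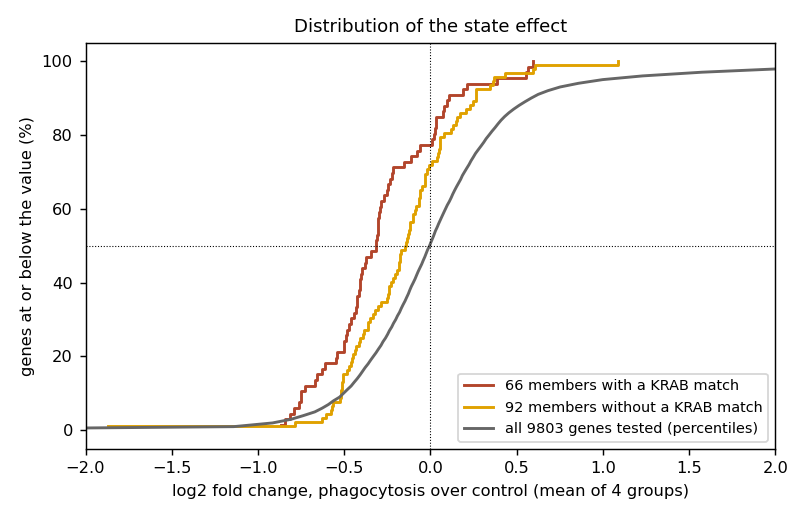
Cumulative distribution of the log2 fold change, phagocytosis over control (x axis, mean of 4 groups), against the percentage of genes at or below each value (y axis), for members with and without a KRAB match and for all 9803 genes tested. The members' curves lie left of the curve of all genes over most of the range, with medians of -0.31 with a KRAB match and -0.15 without, against -0.01.

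Without the 3 control libraries above 20% satellite-like, 0 members were called lower and 1 was called higher, with 410 genes called in all against 1332. The 12 members called lower in the 24 libraries then had adjusted p from 0.061 to 0.78, at log2 fold changes from -1.51 to -0.24, all still below 0. The members' median was then -0.17 and that of all genes tested 0.06, a difference of -0.23, as in the 24 libraries. With phagocytosis libraries 3 and 4 only, 7 members were called lower and 0 higher, of 156 tested, and with 1 and 2 only, 11 lower and 2 higher. With length-scaled counts 4 members were called, all lower, 2 of them among the 14, and the difference of medians was -0.19. With the satellite-like share as a covariate 6 members were called lower and 1 higher. Leaving out 1 library at a time gave 4 to 12 members lower and 0 to 3 higher, and a difference of medians between -0.26 and -0.21. The lower calls numbered 4 without female WT control 2, 5 without female NL4-/- control 1, 6 without male WT control 2, and 7 without male WT control 1 or without male NL4-/- phagocytosis 3. Among the 14 members, 3 (Zfp488, Zfp652 and Zfp658) were called in all 24 of these fits. Some lists of markers of other cells moved with the state too. Higher in mean in phagocytosis libraries were 14 of 15 neuronal, 13 of 14 border-associated macrophage, 13 of 13 monocyte, 12 of 14 astrocyte and 6 of 7 erythroid genes. Other lists were mixed, with 8 of 16 lymphocyte, 8 of 15 oligodendrocyte, 7 of 15 endothelial and 6 of 12 neutrophil genes higher. Of the microglia genes 2 of 16 were higher. Neuronal markers summed to 25.2 to 140 CPM in phagocytosis and 9.67 to 28.9 CPM in control libraries, where Nrgn was at 0. Macrophage markers summed to 1470 to 2493 CPM in phagocytosis and 928 to 1767 CPM in control libraries, and monocyte markers to 50.3 to 311 CPM in phagocytosis and 23.3 to 112 CPM in control libraries. Astrocyte markers summed to 78.5 to 159 CPM in phagocytosis and 58.7 to 145 CPM in control libraries, and lymphocyte markers to 168 to 434 CPM in phagocytosis and 253 to 564 CPM in control libraries. Their part in the members' values was not tested.

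Zfp488 had the largest fall. The protein is a repressor known in oligodendrocytes, where it works with Olig2. The gene lies on chromosome 14 (33967070 to 33978764, minus strand, GRCm38). It ranged from 0 to 165 CPM in phagocytosis libraries, with a median of 53.1, and from 105 to 409 CPM in control libraries, with a median of 201. The states overlapped only through female NL4-/- phagocytosis 2 and 4, at 110 and 165 CPM, which lay above the lowest control library. The library at 0 was female WT phagocytosis 2, where a count of 0 allows up to 6.71 CPM (3 reads, counting error only). The log2 fold change was -1.87 ± 0.35 (SE, adjusted p = 0.0019, edgeR), and -1.51 without the 3 satellite-rich control libraries (adjusted p = 0.061). Summed oligodendrocyte markers were 179 to 392 CPM in phagocytosis libraries and 129 to 203 CPM in control libraries, with 8 of 15 higher, Mog, Olig1 and Olig2 at 0 in control libraries and Cldn11 at 0 in phagocytosis libraries. Their part in the value of Zfp488 was not tested.

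All 6 called KRAB members fell. Zfp738 (chromosome 13, 67658685 to 67687071, minus strand) ranged from 20.8 to 67.1 CPM in phagocytosis libraries, with a median of 43.5, and from 34.9 to 106 CPM in control libraries, with a median of 65.9. Its log2 fold change was -0.75 ± 0.18 (SE, adjusted p = 0.0064, edgeR), and -0.67 without the satellite-rich controls. With length-scaled counts it was -0.41 (adjusted p = 0.33, edgeR). The call was lost in 1 of the 24 fits without a library, and 21.5% of its 31-base words occur in other genes, most of all in Zfp729a. Zfp658 (chromosome 7, 43562256 to 43575461, plus strand) ranged from 17.8 to 56.8 CPM in phagocytosis libraries, with a median of 31.7, and from 44.8 to 68.7 CPM in control libraries, with a median of 53.4. Only 3 phagocytosis libraries lay above the lowest control library. Its log2 fold change was -0.76 ± 0.19 (adjusted p = 0.0069, edgeR), and -0.60 without the satellite-rich controls. It was -0.55 with phagocytosis libraries 3 and 4 only and -0.997 with 1 and 2 only. It shares 1.79% of its words.

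Zfp950 on chromosome 19 had a median of 22.2 CPM in phagocytosis libraries and of 37.6 CPM in control libraries, a log2 fold change of -0.84 ± 0.23 (SE). Zfp715 on chromosome 7 was the lowest of the 6, at medians of 10.5 CPM in phagocytosis and 23.2 CPM in control libraries (-0.87 ± 0.27). With reads of protein-coding transcripts alone Zfp715 had -0.24 (adjusted p = 0.85, edgeR), so its fall depends on how reads were divided among transcripts. Zfp871 on chromosome 17 had medians of 35.8 CPM in phagocytosis and 53.1 CPM in control libraries (-0.54 ± 0.17). Their adjusted p in edgeR lay between 0.011 and 0.029, and they were lost in 1, 5 and 7 of the 24 fits without a library. Without the satellite-rich controls the values were -0.68 for Zfp950, -0.84 for Zfp715 and -0.64 for Zfp871. With phagocytosis libraries 3 and 4 only, Zfp950 had -1.16 and Zfp871 -0.70, and with 1 and 2 only Zfp950 had -0.57 and Zfp871 -0.37. Zfp65, beside Zfp738 on chromosome 13 and sharing 21.4% of its words, most of all with that gene, had medians of 16.2 CPM in phagocytosis and 27.1 CPM in control libraries (-0.79 ± 0.27, adjusted p = 0.044, edgeR). Without the 3 satellite-rich control libraries its value was -0.24 (adjusted p = 0.78), and the call was lost in 15 of the 24 fits. It was -1.14 with phagocytosis libraries 3 and 4 only and -0.47 with 1 and 2 only. With length-scaled counts it was -0.37 (adjusted p = 0.46, edgeR).

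Among members without a KRAB match, 6 fell, Zfp488 included. Zfp652, whose human counterpart is a repressor that works with CBFA2T3, lies on chromosome 11 (95712673 to 95835115, plus strand). It ranged from 65.2 to 154 CPM in phagocytosis libraries, with a median of 90.3, and from 115 to 180 CPM in control libraries, with a median of 146. In control libraries it was even, with an SD of 18.2 around 148 CPM. The log2 fold change was -0.57 ± 0.15 (SE, adjusted p = 0.0084, edgeR), and -0.54 without the satellite-rich controls. It was -0.39 with phagocytosis libraries 3 and 4 only and -0.78 with 1 and 2 only. With length-scaled counts it was -0.41 (adjusted p = 0.096, edgeR). Exons of other genes, Abi3 and Phospho1, cover 19.6% of its exon bases, and without strand the reads there cannot be told apart.

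Zfp646 on chromosome 7, with the most C2H2 matches of the 14 (30), had medians of 50.9 CPM in phagocytosis and 73.0 CPM in control libraries (-0.57 ± 0.16, SE), and the call was lost in 4 of the 24 fits. Zfp740 on chromosome 15 had medians of 44.9 CPM in phagocytosis and 67.6 CPM in control libraries (-0.57 ± 0.18), lost in 12 of the 24 fits. A retained-intron transcript held 54.8% of its reads, 74.7% in phagocytosis libraries and 22.7% in control libraries. With reads of protein-coding transcripts alone its log2 fold change was -2.19, so the size of the change depends on how reads were divided among transcripts. Zfp865 on chromosome 7 had medians of 19.6 CPM in phagocytosis and 33.5 CPM in control libraries (-0.78 ± 0.26), with 28.4% of its exon bases under other genes, Zfp784 among them, and with length-scaled counts its sign turned to 0.54. Its call was lost in 17 of the 24 fits, where the values ran from -0.92 to -0.47. Zfp217 on chromosome 2, whose human counterpart is amplified in breast cancer and binds co-repressors, had medians of 41.6 CPM in phagocytosis and 56.5 CPM in control libraries (-0.48 ± 0.16). Its adjusted p was 0.049 in edgeR, DESeq2 did not call it, and it was lost in 20 of the 24 fits. Without the satellite-rich controls the values were -0.54 for Zfp646, -0.50 for Zfp740, -0.95 for Zfp865 and -0.63 for Zfp217.

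The 2 members that rose were Zfp593 and Zfp131. Zfp593, whose yeast counterpart acts in export of the large ribosomal subunit, ranged from 9.88 to 56.1 CPM in phagocytosis libraries, with a median of 21.8, and from 2.13 to 24.2 CPM in control libraries, with a median of 9.09. In control libraries 3 reads stood for 3.40 to 7.15 CPM by library totals, so its lowest values there rest on few reads. The log2 fold change of Zfp593 was 1.09 ± 0.34 (SE, adjusted p = 0.031, edgeR), and 1.77 without the 3 satellite-rich control libraries. It was 1.02 with length-scaled counts (adjusted p = 0.091, edgeR) and 0.999 with protein-coding transcripts only (adjusted p = 0.19, edgeR). The call was lost in 5 of the 24 fits without a library, where the values ran from 0.90 to 1.76. With phagocytosis libraries 3 and 4 only the value was 0.57 (adjusted p = 0.35, edgeR), and with 1 and 2 only it was 1.49 (adjusted p = 0.0048, edgeR). It shares 71.5% of its 31-base words with the overlapping gene E130218I03Rik, so reads within the shared stretches cannot be told from that gene's. Zfp131 on chromosome 13 ranged from 146 to 563 CPM in phagocytosis libraries, with a median of 284, and from 144 to 294 CPM in control libraries, with a median of 187. Its log2 fold change was 0.59 ± 0.19 (adjusted p = 0.040, edgeR), and it was lost in 10 of the 24 fits, with values from 0.50 to 0.72. With phagocytosis libraries 3 and 4 only it was 0.32 (adjusted p = 0.18, edgeR), with 1 and 2 only 0.85 (adjusted p = 0.0055, edgeR), and without the satellite-rich controls 0.65. Of the reads of Zfp131, 95.1% lay on a protein-coding transcript of 663 bases. The first C2H2 match in the gene's longest coding sequence starts at residue 263, beyond what 663 bases can code. The values of Zfp131 thus rest mostly on a transcript too short to code for its fingers. No member had all 16 phagocytosis libraries below or all of them above the 8 control libraries, where 0.0714% of all genes tested had the first pattern and 0.796% the second.

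**Figure D3:**
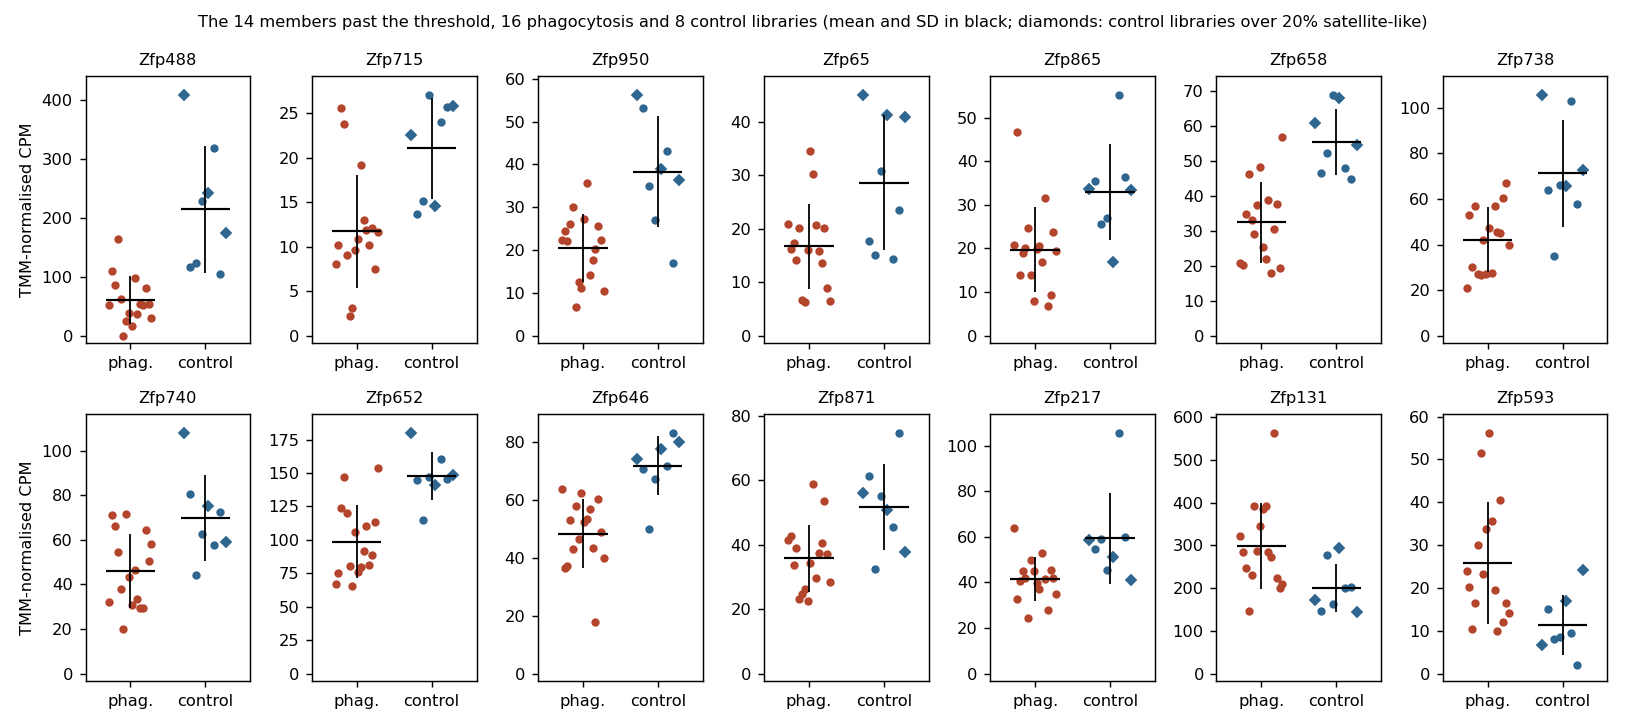
TMM-normalised CPM (y axis, from 0) of the 14 members past the threshold in each phagocytosis and control library; black lines give the mean and SD, and diamonds are control libraries over 20% satellite-like. Zfp488 averaged 60.0 ± 40.7 CPM in phagocytosis and 215 ± 108 CPM in control libraries, and in all 14 panels the libraries of the 2 states overlap.

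**Figure D4:**
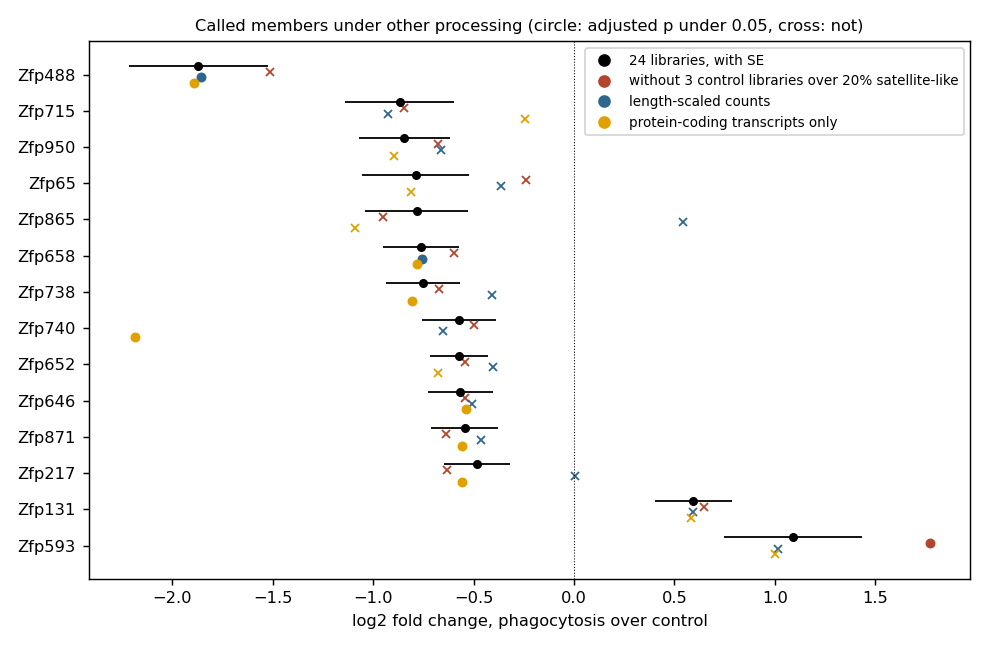
Log2 fold change, phagocytosis over control (x axis), of the same 14 members in the 24 libraries (with SE) and under 3 other ways of processing; circles are adjusted p under 0.05 and crosses are not. Zfp865 (0.54) and Zfp217 (0.00) leave the lower side with length-scaled counts. With protein-coding transcripts only, Zfp740 reaches -2.19 and Zfp715 comes to -0.24.

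The medians by structure are a description, from splits made after the values were seen. The median log2 fold change was -0.31 for KRAB members, with quartiles of -0.49 and -0.08, and -0.15 for the other members, with quartiles of -0.40 and 0.04, so the distributions overlap widely. Within groups the medians were -0.35 for KRAB members and -0.22 for the others in female NL4-/-, -0.48 and -0.13 in female WT, and -0.37 and -0.16 in male WT. In male NL4-/- they were -0.25 for KRAB members and -0.26 for the others. The median was -0.17 for the 65 other KRAB-coding genes tested, of which edgeR called 0 and DESeq2 1, again Zfp945, with 6 at an unadjusted p under 0.05. By number of C2H2 matches, it was -0.17 for 31 members with 0 to 4, -0.13 for 54 with 5 to 9, -0.29 for 43 with 10 to 14 and -0.41 for 30 with 15 or more. The last of these held 7 of the 12 lower calls. The class with 10 to 14 held 0 calls in edgeR and in DESeq2, with 11 members at an unadjusted p under 0.05. Over all genes tested 5.18% were called lower, 8.41% were called higher and 27.0% had such a p. For the 108 members that share under 5% of their words the median was -0.26, with 5 called lower and 1 higher. These medians carry no test, since genes are not replicates of a state.

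Length moved with the state effect over all genes. The median log2 fold change of all genes tested was 0.14 at effective lengths below 1000 bases, 0.02 at 1000 to 2000, -0.06 at 2000 to 4000 and -0.11 above. For members in the same classes it was -0.12 (8 genes), -0.29 (54), -0.21 (70) and -0.29 (26). The members' median effective length was 2352 bases and that of all genes tested 1956. The members' medians were thus below those of all genes within each class, and the part of length in single members' values was not tested.

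The lists of roles and of related genes were described over all genes tested in the same fit. Of 23 tested transcription and chromatin regulators among the numbered Zfp genes, Zfp652 and Zfp217 fell and Zfp131 rose, with a median of -0.12, a count near the 13.6% of all genes tested. Of 9 with roles in RNA, translation or ubiquitin, Zfp593 rose. Zfp207 had 102 ± 24.2 CPM in phagocytosis and 131 ± 27.9 CPM in control libraries (SD, n = 16 and 8, adjusted p = 0.074, edgeR), and Zfp346, which binds double-stranded RNA, had 21.4 ± 9.60 CPM in phagocytosis and 17.3 ± 6.05 CPM in control libraries (adjusted p = 0.51, edgeR).

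Of the 8 genes listed for retroelements or imprinted loci, 3 were tested. Of these 3, 0 were called by edgeR and 0 had an unadjusted p under 0.05. Over all genes tested 13.6% were called and 27.0% had such a p, so 0 of 3 cannot tell the list from all genes. Zfp445, which helps keep imprints, had 33.5 ± 8.01 CPM in phagocytosis and 41.8 ± 10.4 CPM in control libraries (SD). Zfp809, which silences murine leukaemia proviruses, had 18.4 ± 7.18 CPM in phagocytosis and 21.2 ± 7.95 CPM in control libraries. Zfp110, known better as a partner of the p75 neurotrophin receptor, had 41.8 ± 19.7 CPM in phagocytosis and 45.1 ± 14.6 CPM in control libraries.

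In the co-repressor machinery that KRAB proteins recruit, 2 genes rose and 1 fell. Of 33 tested genes, Daxx, a histone H3.3 chaperone, rose to 59.6 ± 21.0 CPM in phagocytosis libraries, against 36.1 ± 8.11 CPM in control libraries, and Gatad2a, a NuRD subunit, rose to 91.3 ± 21.2 CPM in phagocytosis, against 67.2 ± 17.3 CPM in control libraries. Atf7ip, a partner of Setdb1, fell to 102 ± 27.2 CPM in phagocytosis, against 137 ± 27.7 CPM in control libraries (SD, edgeR adjusted p = 0.029, 0.039 and 0.042 for the 3 genes). These 3 are 9.09% of the list, below the 13.6% of all genes tested, and the median of the list was 0.04. Without the satellite-rich controls the values were 0.71 for Daxx, 0.44 for Gatad2a and -0.43 for Atf7ip, with adjusted p of 0.15, 0.23 and 0.18 in edgeR.

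Other zinc finger families had medians between the members' and that of all genes tested. It was -0.13 for 15 SCAN-related genes, of which Zscan26 fell, -0.08 for 27 Zbtb genes, -0.04 for 16 genes of a list of lettered Zfp genes, Zfp36, Zfpl1, Zfx and the Zfhx genes, and -0.03 for 12 Klf and Sp genes. Among Zbtb genes, Zbtb7a rose (119 ± 44.2 CPM in phagocytosis, 58.1 ± 11.6 CPM in control libraries) and Zbtb38 fell. Klf12, Klf3 and Sp3 fell and Klf6, an early-response factor, rose to 224 ± 58.9 CPM in phagocytosis, against 171 ± 33.6 CPM in control libraries. Zfhx3 fell to 207 ± 42.4 CPM in phagocytosis, against 309 ± 58.3 CPM in control libraries, and Zfx fell as well, so that 0 genes with a Zfp symbol were called in that list. The shares called were 6.67% of the SCAN-related, 7.41% of the Zbtb and 33.3% (4 of 12) of the Klf and Sp genes. In the lettered list 2 of the 16 were called. The share of all genes tested was 13.6%, so that only the Klf and Sp list lay above it, on few genes. Whether any of these lists differs from all genes tested was not tested. When the satellite-rich controls were left out, Zbtb7a (0.82), Klf12 (-0.63) and Zfhx3 (-0.65) were still called by edgeR, and Zbtb38 (-0.74), Klf3 (-0.41), Klf6 (0.38), Sp3 (-0.47), Zfx (-0.39) and Zscan26 (-0.51) were not.

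Within each sex and genotype group the members' median was again below 0. It was -0.27 in female NL4-/-, -0.26 in male NL4-/-, -0.29 in female WT and -0.25 in male WT, where all genes tested had medians from -0.02 to 0.01. Without the satellite-rich controls it was -0.24 in female NL4-/-, -0.11 in male NL4-/-, -0.29 in female WT and -0.13 in male WT, where all genes tested had 0.02, 0.05, -0.01 and 0.05 in that order. These 4 comparisons share no libraries. The sign was negative in all 4 for 48 members, 30.4%, where 18.5% of all genes tested had it, and positive in all 4 for 5 members, 3.16%, where 19% of all genes had it. The 5 were Zfp131, Zfp593, Zfp764, Zfp446 and Zfp358. By edgeR 0 members were called in any of the 4 comparisons, in which 0.459, 0.602, 0.581 and 0.326% of all genes tested were called, in the order given for the medians. DESeq2 called 0 members in each, and 7, 13, 19 and 7 members had an unadjusted p under 0.05. These are 4.43, 8.23, 12.03 and 4.43% of the members, where 9.56, 10.8, 12.1 and 8.20% of all genes tested had such a p.

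The smallest p within a group belonged to members that the mean comparison had called. Zfp738 had a log2 fold change of -1.06 ± 0.36 (SE, adjusted p = 0.29, edgeR) in female NL4-/-. There it held 20.8, 52.9, 30.2 and 56.9 CPM in phagocytosis libraries and 106 and 64.2 CPM in control libraries. In male NL4-/- it was Zfp488, at 16.3, 97.3, 37.5 and 53.4 CPM in phagocytosis libraries and 243 and 319 CPM in control libraries (-2.43 ± 0.70, adjusted p = 0.16, edgeR). In female WT it was Zfp715 (-1.69 ± 0.54, adjusted p = 0.16, edgeR), and in male WT Zfp646 (-0.97 ± 0.32, adjusted p = 0.34, edgeR). Each of these 4 values misses the threshold. Leaving out the satellite-rich controls gave -0.67 for Zfp738 in female NL4-/-, -2.60 for Zfp488 in male NL4-/- and -0.98 for Zfp646 in male WT.

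**Figure D5:**
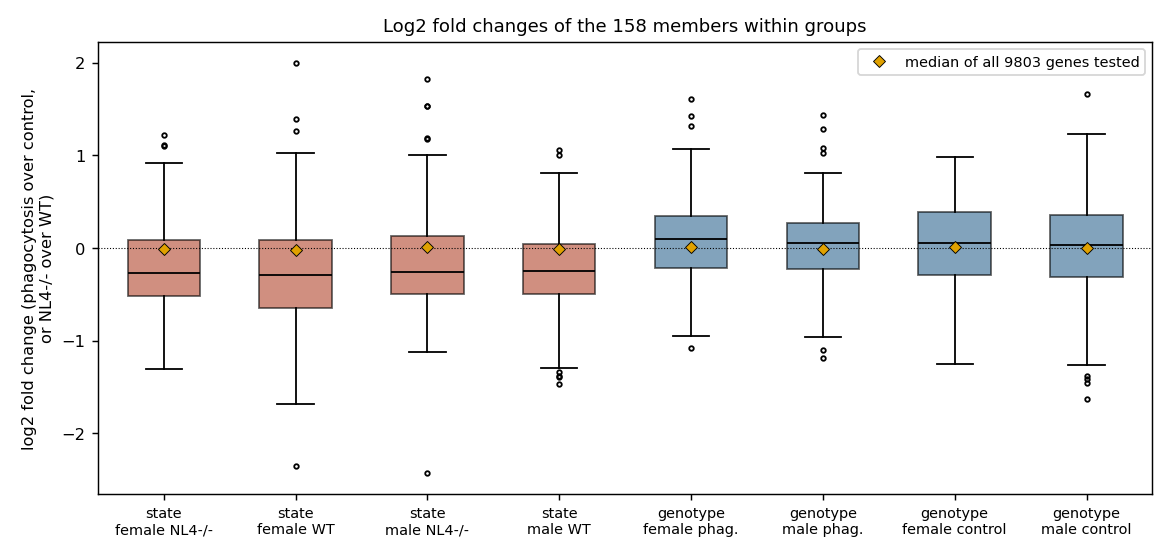
Log2 fold changes of the 158 members (y axis) for phagocytosis over control in 4 sex and genotype groups and for NL4-/- over WT in 4 sex and state groups; boxes give quartiles and the median, whiskers reach 1.5 times the box, and diamonds are the medians of all 9803 genes tested. State medians lie between -0.29 and -0.25, and genotype medians between 0.03 and 0.09.

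The study also asks whether the loss of neuroligin-4 changes microglia. No member differed between NL4-/- and WT by edgeR, as the mean of the 4 sex and state groups or within any of them, and 0% of all genes tested were called in these 5 comparisons. In the mean comparison DESeq2 called 0 members and 9 other genes, and 6 members had an unadjusted p under 0.05 in edgeR, each with a higher level in NL4-/-. Those 6 are 3.80% of the members, where 4.47% of all genes tested had such a p. The members' median log2 fold change, NL4-/- over WT, was 0.03, where that of all genes tested was 0.00. Zfp444 had the smallest p. It ranged from 31.5 to 69.7 CPM in NL4-/- libraries, with a median of 54.1, and from 19.2 to 59.1 CPM in WT libraries, with a median of 40.2 (0.51 ± 0.18, SE, adjusted p = 0.92, edgeR).

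Zfp523, the counterpart of human ZNF76, averaged 19.8 ± 6.70 CPM in NL4-/- and 13.05 ± 4.84 CPM in WT libraries (SD, n = 12 each), with a log2 fold change of 0.62 ± 0.24 (SE). Zfp950, one of the members lower in phagocytosis, averaged 31.8 ± 13.6 CPM in NL4-/- and 21.2 ± 9.87 CPM in WT libraries (0.55 ± 0.23). Both overlapped widely between the genotypes. Within groups, the smallest p belonged to Zfp956 in female phagocytosis (1.31 ± 0.44), Zfp41 in male phagocytosis (1.44 ± 0.49), Zfp740 in female control (0.81 ± 0.41) and Zfp444 in male control (1.23 ± 0.45), with adjusted p from 0.94 to 1 in edgeR. DESeq2 called 0 members within any group. The unadjusted p was under 0.05 for 8, 13, 0 and 2 members, in the same order, which is 5.06, 8.23, 0 and 1.27% of them, where 5.20, 4.74, 2.14 and 3.35% of all genes tested had such a p. Without the satellite-rich controls the mean values were 0.42 for Zfp444, 0.43 for Zfp523 and 0.73 for Zfp950. The values in control libraries were then 0.59 for Zfp740 in females and 1.05 for Zfp444 in males.

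Differences of effects between sexes or genotypes were tested as interactions, and 0 members and 0% of all genes tested were called by edgeR, with 0 members called by DESeq2. For the genotype by state, sex by state, and sex by genotype interactions, 4, 6 and 8 members had an unadjusted p under 0.05. These are 2.53, 3.80 and 5.06% of the members, where 2.82, 1.94 and 4.76% of all genes tested had such a p. Zfp956 in the phagocytosis libraries had the smallest p of these. In females it held 19.2, 26.4, 20.9 and 32.0 CPM in NL4-/- libraries and 13.03, 13.4, 3.11 and 9.62 CPM in WT libraries. In males it held 14.5, 19.2, 3.88 and 11.9 CPM in NL4-/- libraries and 31.5, 16.1, 29.8 and 28.4 CPM in WT libraries. The female genotypes did not overlap and the male ones did, through 1 library each. Zfp956 was picked for its small p, and the share of all genes tested with such a pattern was not counted. The interaction, the male effect minus the female one, was -2.42 ± 0.61 (SE) on the log2 scale with an unadjusted p of 0.00039 and an adjusted p of 0.98 over all genes tested (edgeR). It was -3.98 with phagocytosis libraries 3 and 4 only and -1.28 with 1 and 2 only.

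In the genotype by state interaction the smallest p was that of Zfp777 (1.57 ± 0.56, adjusted p = 1, edgeR), which held 4.85 and 7.19 CPM in male NL4-/- control libraries and 21.3 and 9.08 CPM in male WT control libraries. In male NL4-/- control 1 and 2, 3 reads stood for 6.54 and 7.15 CPM by library totals, so those values rest on few reads. The interaction averages both sexes over 24 libraries, of which the male controls are only a part. In the sex by state interaction it was Zfp335, a subunit of complexes that methylate histone H3, at -0.78 ± 0.26 (adjusted p = 1, edgeR). In males Zfp335 held 53.4 to 99.6 CPM in the 8 phagocytosis libraries and 90.8 to 116 CPM in the 4 control libraries. In females it held 68.3 to 107 CPM in the 8 phagocytosis libraries and 65.2 to 77.3 CPM in the 4 control libraries. Neither value passed the threshold. Leaving out the satellite-rich controls gave 1.74 for Zfp777 and -0.68 for Zfp335.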

How the data were processed

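The deposited files give, per library and transcript, expected counts of reads, TPM and an effective length. Per the file headers, the authors' expected counts carry no normalisation and can be fractional, and the authors' TPM take effective length into account and have one sum per library. The sources used here name no quantifier, index or read filter. Of 116945 transcripts, 116023 matched GENCODE vM21 (GRCm38), 99.67% in the same version. The rest (0.274 to 0.379% of reads) was dropped.

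Per gene, expected counts were summed and rounded. edgeR 4.0.16 (robust quasi-likelihood F test, TMM, filterByExpr by group at a minimum of 10 counts) tested 9803 genes in 1 fit of 24 libraries with 8 group means, and 13 comparisons were drawn from it. Tests are two-sided and p-values are adjusted by Benjamini-Hochberg over all genes tested. The biological coefficient of variation was 0.285. Log2 fold changes carry a prior count of 0.125, and SE come from the fold and the F statistic. Member CPM are TMM-normalised, while the 10 CPM rule, shares and marker sums use library totals alone. Amplified reads are not independent molecules, so floors cover counting error only.

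Members, lists and splits were chosen with earlier results of these data known. Genes were named by the following rule: in the mean state comparison up to 12 members a direction past the threshold, in other comparisons the smallest p, the 8 members of highest mean CPM, the neighbours of the limit, and up to 3 genes a list. Where a sentence names Zfp764, Zfp446, Zfp358, Zfp945, Zfp993 or Sp3, it was chosen after its values were seen. Alternatives were DESeq2 1.42.0, other scalings and filters, length-scaled counts (from TPM and effective length), subsets of libraries, a replicate block, a satellite covariate and other CPM limits.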

Additional observations from a re-analysis of the deposited data

Results flagged for a closer look

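Of 120 combinations of a named member (or the summed share) and a phagocytosis group of 4, 5 held a library far from the other 3, where chance flags about 1 in 20. Zfp738 had 41.93 CPM in female WT phagocytosis 3 and 26.9 to 27.3 CPM in the others. Zfp445 had 42.72 CPM in male NL4-/- phagocytosis 3 and 34.4 to 35.6 CPM in the others. The remaining 3 concern male WT phagocytosis 1. There Zfp131 had 562.5 CPM (199.8 to 223 in the others), Zfp593 had 40.5 CPM (12.1 to 16.4) and Zfp346 had 1.125 CPM (21.5 to 24.5).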

How the results depend on the processing

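The members' median stayed below that of all genes tested in every alternative fit of the mean state comparison, with differences of -0.42 to -0.19. The first of these is the fit without a filter, which moved the median of all genes to 0.18. Members called higher or lower in that comparison moved past 1.5 times the 2 and 12 as follows. They were 0 and 4 with length-scaled counts, 1 and 0 without the 3 satellite-rich control libraries, 0 and 7 with phagocytosis libraries 3 and 4 only, 1 and 6 with the satellite covariate, and 0 and 7 with protein-coding transcripts only. With library totals alone 7 were lower. Leaving out each library gave 0 to 3 higher and 4 to 12 lower, and 781 to 1508 of all genes, 781 without female WT control 2. All genes called were 884, 410 and 782 with the first 3 of those alternatives. The protein-coding and numbered 1 and 2 alternatives were chosen after seeing the data.

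Within groups, 1 member was called lower in female NL4-/- with phagocytosis libraries 1 and 2 only, and 1 higher in female WT without a filter and also with the replicate block. For NL4-/- against WT, all genes called were 9 with DESeq2, 39 without a filter, 1 with length-scaled counts, 12 with phagocytosis libraries 3 and 4 only, 2 with 1 and 2 only, 1 with protein-coding transcripts and 0 to 8 leaving out each library, 8 without male NL4-/- phagocytosis 1.

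Signs turned for Zfp865 (0.54), Zfp217 (0.0027) and Zfp445 (0.031) with length-scaled counts, Zfp276 (0.95) and Zfp809 (0.34) with protein-coding transcripts, and Zfp110 without the satellite-rich controls (0.24) or with the covariate (0.097). Leaving out 1 library gave -0.26 to 0.064 for Zfp809 and -0.21 to 0.089 for Zfp110. Among these genes Zfp865 and Zfp217 had been called, and the cause was not tested.

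Deviations of libraries with the same number had a median correlation of 0.004 over 68 pairs, from -0.14 to 0.18, with 6 above 0.1. The libraries of a control group deviate from their mean by equal and opposite amounts, whatever the numbers stand for. Many of the pairs include a control library, so this median cannot decide whether the numbers pair the phagocytosis libraries. With the replicate block 15 members were called, 10 of them among the 14. At a limit of 5 CPM, 198 of 232 genes were tested and 14 called. At 20 CPM, 13 of 90 were called.

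At about 4 to 10 reads per 10 CPM, low members are measured coarsely.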
